A study of Mus musculus with 2 samples.

Results

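The 10 genes described here mark the nephron downstream of the proximal tubule. Umod, Slc12a1 and Kcnj1 belong to the thick ascending limb, and Slc12a3 and Calb1 to the distal convoluted and connecting tubule. Scnn1a, Scnn1b and Scnn1g encode the epithelial sodium channel, and Aqp2 and Tfcp2l1 belong to the collecting duct. Aqp2 and Tfcp2l1 are called the principal cell group here. Every probe set whose platform gene symbol was exactly 1 of these names was taken, which gave 19 of the 45037 probe sets that are not controls, for 10 of 18193 genes. RNA came from glomeruli, the capillary tufts that filter blood in the kidney. The donors were male KK/Ta mice, 20 weeks old, of an inbred line prone to obesity and diabetes. The RNA was hybridised to Affymetrix Mouse Genome 430 2.0 arrays, whose probe sets are groups of short oligonucleotides for 1 transcript. The groups were mice on a high-fat diet (HFD, 1 array) and mice on a normal chow diet (Chow, 1 array), with the same strain, sex and age. The submitters' design text mentions 3 mice but does not settle whether 3 animals stood behind each array or whether their RNA was pooled. Since each diet has a single array, no replicate can check a difference. No test, standard error or p-value is given, and each difference describes these 2 RNA preparations.

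The thick ascending limb takes up sodium chloride without water and so builds the gradient that concentrates urine, the distal convoluted tubule sets the fine balance of sodium, magnesium and calcium, and principal cells of the collecting duct take up sodium and water under aldosterone and vasopressin. None of these cells belongs to the glomerular tuft. Fewer cells of a type and less RNA per cell cannot be told apart in such samples.

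Signals are the linear probe set intensities that the authors deposited. Differences are HFD minus Chow in log2 units, after centring both arrays on their medians, which added 0.083 to each difference. The median also served as a floor (42.3 deposited units for HFD and 44.9 for Chow), and a probe set above it on 1 array only has a bound. Brightness depends on the probes, so the signals of different probe sets are not ranked against each other. The scatter of differences among probe sets of like signal (scaled median absolute deviation in 10 bins) is given as a measure of precision. It holds technical noise and real differences together, and ran from 0.37 in the widest bin to 0.16 in the brightest. The labelled tissue was checked on its defining genes. Above the floor on both arrays were 22 of 22 podocyte markers and 22 of 22 glomerular endothelial markers, against 10824 of all 18193 genes. The 6 control probe sets of Gapdh and beta-actin were all higher in HFD after centring, by 0.14 to 0.28. Their 3′ over 5′ ratio, which falls with better RNA, was 3.43 (HFD) and 3.59 (Chow) for Gapdh.

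Signal for genes of all 4 groups was above the floor, and most of it was higher in HFD. Of the 19 probe sets, 9 were above the floor on both arrays, 1 in HFD only and 9 on neither array. Of all 45037 probe sets, 21617 were above it on both arrays, 1802 on 1 and 21618 on neither. The members were thus above the floor about as often as probe sets in general. Among the 10 member probe sets above the floor, 9 were higher and 1 was lower in HFD. The 9 include Scnn1b, which was above the floor in HFD only and so could only count as higher. Of all 23419 probe sets above the floor, 13244 were higher and 10175 lower. The median difference was 0.63 log2 units over the 10, against 0.038 over the 23419. At least 1.5-fold higher were 6 of the 10, against 3.66% of all probe sets, and at least 2-fold higher was 1, against 0.615%. None was lower by 1.5-fold or by 2-fold, against 2.58% and 0.295% of all probe sets. Without centring the count at 1.5-fold was 4, since Kcnj1 (0.55) and Aqp2 (0.53) then fell short of it. With no floor, 11 of the 19 were at least 1.5-fold higher (17.2% of all 45037 probe sets), 2 at least 2-fold higher (10.8%) and 1 at least 1.5-fold lower (15.9%). The counts with a floor leave out probe sets that no diet brought past it, and the members were chosen with earlier results of these data known, so the counts are a description. With 1 value per gene, from the probe set with the highest mean, 6 of the 9 genes past the floor were up by 1.5-fold or more in HFD (4.21% of 11356 genes) and 1 by 2-fold or more (0.722%). None was lower by 1.5-fold (1.41% of all genes) or 2-fold (0.159%). The median over these 9 genes was 0.64, against 0.064 over all genes. Over the 8 of them above the floor on both arrays it was 0.68, against 0.063 over all such genes.

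**Figure D1:**
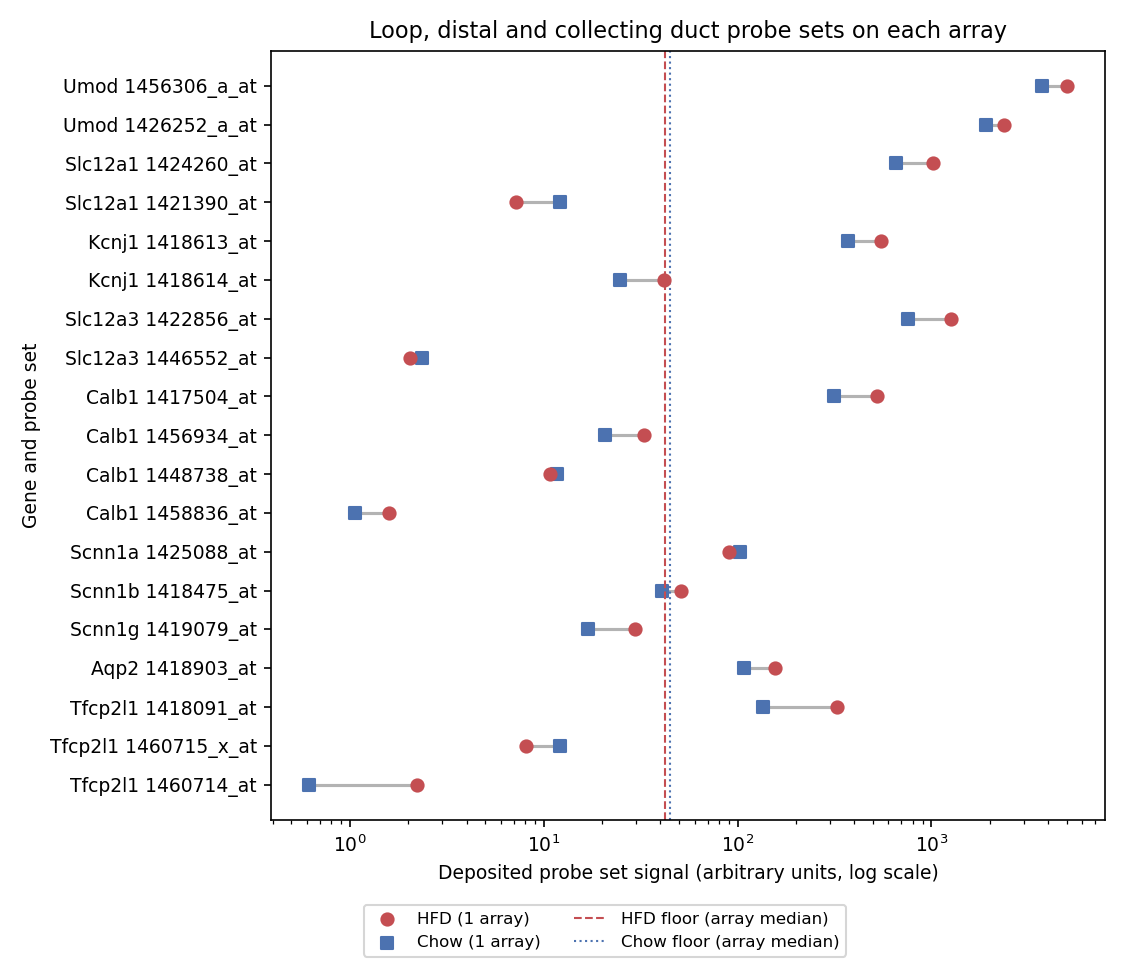
Deposited signal of each of the 19 probe sets in HFD (circles) and in Chow (squares), on a log axis in arbitrary units, with the floor of each array as a vertical line and genes in order of nephron segment. Each gene but Scnn1g has 1 or more probe sets past the floor of an array, and the HFD circle lies right of the Chow square in all of those except Scnn1a.

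In the thick ascending limb, all 4 probe sets above the floor were higher in HFD, by 1.32-fold to 1.64-fold, with a median difference of 0.57. Umod, which encodes uromodulin, the most abundant protein of normal urine, lies at chr7:119462708-119479262 (GRCm38.p6, as for all positions here). Its probe set 1456306_a_at had a signal of 5000.5 in HFD and 3742 in Chow, in the top few percent of each array (percentiles 98.6 and 97.7). That is a difference of 0.50, or 1.42-fold, beside a like-signal scatter of 0.16. The other Umod probe set, 1426252_a_at, had 2379 in HFD and 1916 in Chow, a difference of 0.40 (1.32-fold). Umod is the only one of the 10 genes with 2 probe sets above the floor, and both put HFD higher by less than 1.5-fold. The suffix _a_at of both names marks probes shared by several transcripts of 1 gene.

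Slc12a1 (chr2:125152510-125230002) encodes NKCC2, the sodium-potassium-chloride cotransporter that loop diuretics block. Its probe set 1424260_at had a signal of 1014 in HFD and 655 in Chow, a difference of 0.71 (1.64-fold, scatter 0.19). A second Slc12a1 probe set, 1421390_at, was under the floor on both arrays (7.23 in HFD and 12.2 in Chow), so no direction is read from it. Kcnj1 (chr9:32372418-32399197) encodes ROMK, the potassium channel that recycles potassium for NKCC2 in the loop and secretes it in the collecting duct. Its probe set 1418613_at had 548 in HFD and 374 in Chow, a difference of 0.64 (1.55-fold, scatter 0.21). Its other probe set, 1418614_at, lay just under the HFD floor at 41.9 and had 24.9 in Chow. The 3 thick ascending limb genes were therefore each higher in HFD wherever a probe set was above the floor, with the smallest differences in Umod.

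In the distal convoluted tubule, both genes were higher in HFD by almost the same factor. Slc12a3 (chr8:94329109-94366222) encodes NCC, the sodium chloride cotransporter that thiazide diuretics block. Its probe set 1422856_at had a signal of 1263 in HFD and 755 in Chow, a difference of 0.83 (1.77-fold, scatter 0.19). Calb1 (chr4:15881264-15906709) encodes calbindin-D28k, a calcium buffer of distal convoluted and connecting tubule cells. Its probe set 1417504_at had 526 in HFD and 315 in Chow, a difference of 0.82 (1.77-fold, scatter 0.21). Slc12a3 ranked 179 and Calb1 182 among the 11356 genes above the floor by size of difference towards HFD. The platform lists 3 further Calb1 probe sets and 1 further Slc12a3 probe set, all under the floor on both arrays. One of them, 1448738_at, carries the same accession in the annotation as 1417504_at, yet had a signal of 10.8 in HFD and 11.7 in Chow. The median of the 2 probe sets above the floor was 0.82, and it was 0.34 when the dim probe sets were counted too, with no floor and each array's 25th percentile added before the log2.

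The subunits of the epithelial sodium channel gave no common direction, and 1 of the 3 was above the floor on both arrays. The channel is built from an alpha, a beta and a gamma subunit and carries the sodium uptake of the connecting tubule and collecting duct. Scnn1a, the alpha subunit (chr6:125314271-125344943), had a signal of 90.0 in HFD and 103 in Chow, and was the 1 member above the floor that was lower in HFD. Its difference of -0.12 (1.08-fold lower) was smaller than the like-signal scatter of 0.37. Scnn1b, the beta subunit (chr7:121865038-121918728), had 51.4 in HFD and 40.8 in Chow, where it was under the floor, so it was at least 1.21-fold higher in HFD. Scnn1g, the gamma subunit, had 29.6 in HFD and 17.0 in Chow, both under the floor, and no fold is given. The median of the 2 probe sets above the floor was 0.081, with Scnn1b at its bound. It was -0.0027 without centring and 0.42 with no floor, so no direction is given for the channel as a group. Scnn1g (chr7:121734420-121768482) and Scnn1b are neighbours on chromosome 7, 96555 bases apart.

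**Figure D2:**
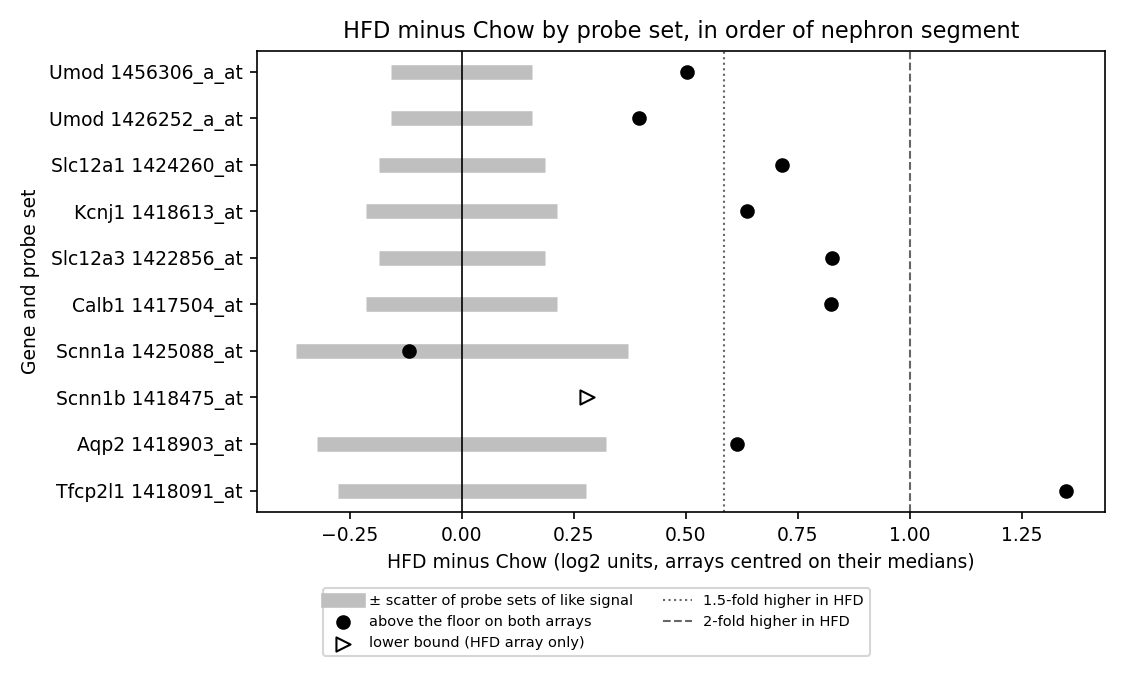
HFD minus Chow in log2 units for the 10 member probe sets above the floor, with circles for those above it on both arrays, a triangle for a lower bound, and grey bars for plus and minus the scatter of probe sets of like signal around 0. Scnn1a at -0.12 lies inside its bar, the 8 other circles lie to the right of theirs, and Tfcp2l1 at 1.35 lies past the 2-fold line.

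The largest difference among the members was that of Tfcp2l1 (chr1:118627923-118685168), a transcription factor gene of collecting duct epithelium. In mice it is required for the distal nephron's mature pattern of principal and intercalated cells. Its probe set 1418091_at had a signal of 327 in HFD and 136 in Chow, at percentiles 76.9 and 65.2 of the arrays. The difference of 1.35 (2.55-fold) ranked 48 of 23419 probe sets and, at the gene level, 29 of 11356, beside a like-signal scatter of 0.28. The other 2 Tfcp2l1 probe sets were under the floor on both arrays, 1460715_x_at with 8.08 in HFD and 12.1 in Chow and 1460714_at with 2.21 in HFD and 0.617 in Chow. The Tfcp2l1 difference therefore rests on 1 probe set. With the floor at the 70th percentile, where Chow falls under it, the difference was a bound of 0.81, and no member was then 2-fold higher. Aqp2 (chr15:99579056-99584545), the vasopressin-regulated water channel of principal cells, had 156 in HFD and 108 in Chow on its single probe set. That is a difference of 0.61 (1.53-fold), beside a scatter of 0.32. Aqp2 fell short of 1.5-fold without centring (0.53) and when the 25th percentile was added to every signal (0.57). Both genes of the principal cell group were higher in HFD, with the larger difference in Tfcp2l1, which is not a gene of principal cells alone. Their median was 0.98, and it was 0.41 with the dim Tfcp2l1 probe sets counted in the same way.

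**Figure D3:**
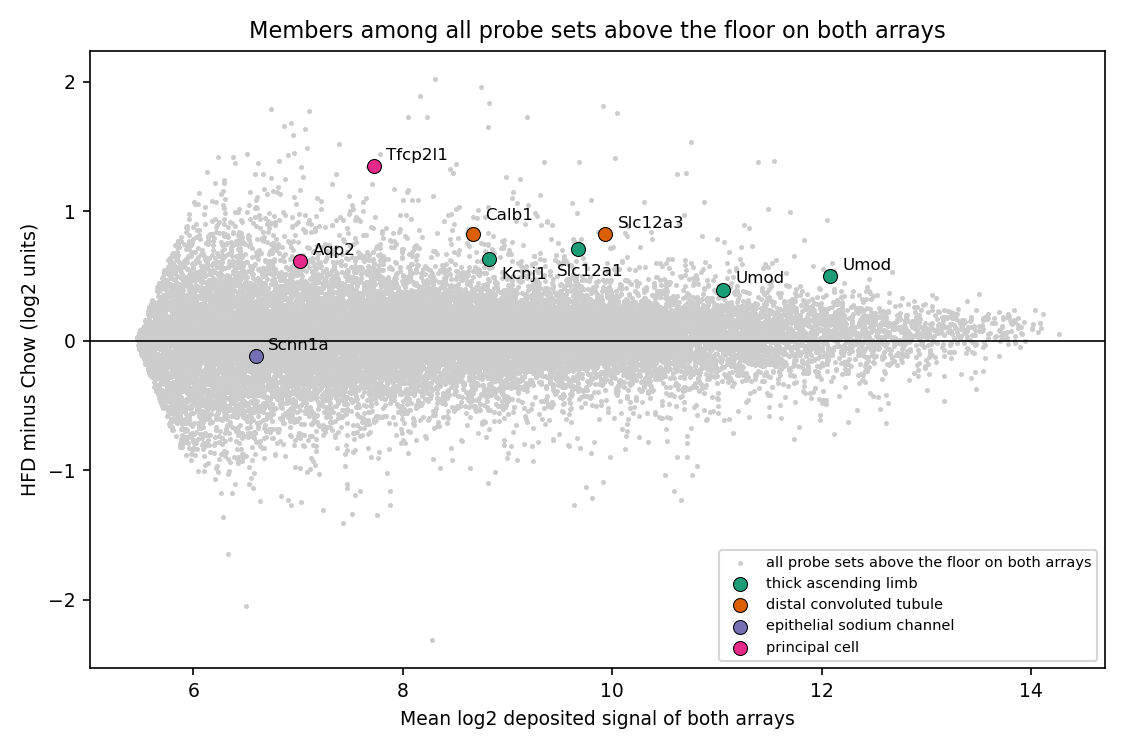
HFD minus Chow in log2 units against the mean log2 deposited signal, for all probe sets above the floor on both arrays (grey) and the 9 member probe sets among them (coloured by segment). The cloud narrows with signal, and Umod, Slc12a3, Slc12a1, Calb1, Kcnj1 and Tfcp2l1 lie along its upper side, while Scnn1a lies within it.

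The promoters of 3 members are shown because they carry the largest differences or a match to the factor in the set. The window is 250 bases before to 50 after a start site of the gene in assembly GRCm38.p6, which is the C57BL/6J genome and not that of KK/Ta. In Tfcp2l1 and Slc12a3, but not in Scnn1b, this start site differs from the first base of the gene position given above. Of the 10 members, 8 had an entry. Capitals mark TATAAA on either strand in the first 2, and in the third the motif known for the TFCP2L1 protein, read as CCNG, any 6 bases and CCNG again, on either strand. Tfcp2l1 lies at chr1:118627695-118627994, Slc12a3 at chr8:94328958-94329257 and Scnn1b at chr7:121864788-121865087, all on the plus strand.
Tfcp2l1: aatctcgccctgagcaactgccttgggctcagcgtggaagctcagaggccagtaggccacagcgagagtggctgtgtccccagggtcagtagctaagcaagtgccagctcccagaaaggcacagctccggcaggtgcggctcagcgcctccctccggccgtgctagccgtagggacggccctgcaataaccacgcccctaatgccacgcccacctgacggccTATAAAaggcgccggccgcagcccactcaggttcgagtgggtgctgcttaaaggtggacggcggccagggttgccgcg
Slc12a3: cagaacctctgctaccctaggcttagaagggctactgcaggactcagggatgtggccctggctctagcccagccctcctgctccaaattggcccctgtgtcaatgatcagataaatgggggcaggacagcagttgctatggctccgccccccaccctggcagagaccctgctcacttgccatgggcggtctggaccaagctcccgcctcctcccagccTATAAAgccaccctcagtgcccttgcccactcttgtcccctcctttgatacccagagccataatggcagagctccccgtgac
Scnn1b: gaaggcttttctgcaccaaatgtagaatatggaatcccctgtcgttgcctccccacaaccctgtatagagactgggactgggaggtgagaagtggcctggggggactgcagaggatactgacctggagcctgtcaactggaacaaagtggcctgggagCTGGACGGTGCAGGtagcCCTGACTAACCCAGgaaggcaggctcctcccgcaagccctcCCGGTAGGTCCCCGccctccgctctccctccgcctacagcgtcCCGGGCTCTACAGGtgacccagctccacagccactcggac

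TATAAA was found in 2 of the 8 promoters, against 13.6% of 32851 promoters of the same length. Counted from the start site of the window, not from the gene positions above, it began 28 bases before in Tfcp2l1 and 32 bases before in Slc12a3. The TFCP2L1 motif matched in 2 of the 8, with 4 matches in Scnn1b and 1 in Scnn1g, against 29.5% of all promoters. A match is a description of letters in this window and no evidence of binding.

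Other genes of the same segments were taken from fixed lists. Beside the counts below, 11356 of all 18193 genes were above the floor, 10824 of them on both arrays. Of 20 further thick ascending limb genes, 11 were above the floor, 9 of them on both arrays. At least 1.5-fold higher were 6 (4.21% of all genes), none was at least 1.5-fold lower (1.41% of all genes), and the median was 0.61 log2 units. Ptger3, a prostaglandin E2 receptor gene named here after its values were seen, was above the floor in HFD only (64.7 in HFD and 43.0 in Chow), and its bound is 1 of the 6 and also the median. Over the 9 genes above the floor on both arrays the median was 0.66, with 5 at least 1.5-fold higher. Stk39, the kinase SPAK that activates NKCC2 and NCC, reached 363 in HFD and 181 in Chow, a difference of 1.09 (2.13-fold). The Stk39 difference was 0.73 as the median over its probe sets above the floor. With the 70th percentile floor it was 0.97, so it was short of 2-fold in both settings. Slc9a3, the sodium-proton exchanger NHE3 of proximal tubule and thick limb, had 135 in HFD and 69.8 in Chow (2.05-fold), and the transcription factor gene Pou3f3 had 147 in HFD and 82.3 in Chow (1.89-fold). Egf, made by the thick limb and distal tubule, differed less, with 5725 in HFD and 5314 in Chow (1.14-fold). Nos1, of the macula densa, differed by -0.41 near the floor, with 42.6 in HFD and 59.9 in Chow. Cldn16 and Cldn19, the claudins of thick limb calcium and magnesium transport, were under the floor on both arrays.

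For the distal convoluted and connecting tubule, 18 of 20 further genes were above the floor, all on both arrays, and the median was 0.17. At least 1.5-fold higher were 6 (4.21% of all genes), and none was at least 1.5-fold lower (1.41% of all genes). Emx1 (134 in HFD and 72.4 in Chow, 1.97-fold) and Kcnj16 (550 in HFD and 300 in Chow, 1.94-fold), a potassium channel subunit of the distal tubule's basolateral membrane, had the largest differences. Wnk4, a kinase upstream of SPAK and NCC, had 176 in HFD and 115 in Chow (1.62-fold). Trpm6, the magnesium channel, stood at 0.62, whereas Pvalb, encoding parvalbumin of the early distal convoluted tubule, stood at -0.038, with 257 in HFD and 280 in Chow. Wnk1, expressed in many cell types, had 9215 in HFD and 9945 in Chow, a difference of -0.027. The list thus holds genes near 0 beside genes as far apart as Slc12a3 and Calb1.

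Further principal cell genes had a median of 0.10 (0.12 over those above the floor on both arrays), against 0.064 over all genes. Of 29, 15 were above the floor, 12 of them on both arrays. At least 1.5-fold higher were 2 (4.21% of all genes), and none was at least 1.5-fold lower (1.41% of all genes). Cldn8, a tight junction claudin of the distal nephron, had 75.3 in HFD and 45.8 in Chow (1.74-fold), and Prss8, a protease that activates the sodium channel, had 249 in HFD and 164 in Chow (1.61-fold). With the 70th percentile floor Prss8 was a bound of 0.42, short of 1.5-fold. Tsc22d3, a glucocorticoid and aldosterone target, had the largest negative difference, with 2986 in HFD and 3791 in Chow (1.20-fold lower). Sgk1, the aldosterone-induced kinase that also responds to stress in many cells, had 14027 in HFD and 13216 in Chow (1.12-fold). Nr3c2, the mineralocorticoid receptor, stood at 0.051, Nedd4l, the ligase that removes the channel from the membrane, at -0.081, and Aqp3, the basolateral water channel, at 0.23. Avpr2 and Aqp4 were under the floor on both arrays. Of 18 intercalated cell genes, 6 were above the floor, with a median of 0.19 (0.16 over the 5 above it on both arrays). After centring all 6 were higher, against 7068 of all 11356 genes above the floor, and 1 by 1.5-fold or more (4.21% of all genes). Slc26a4 (63.7 in HFD and 64.9 in Chow) and Kit (111 in HFD and 115 in Chow) were lower as deposited. They were higher only through centring. The one past 1.5-fold, the proton pump subunit gene Atp6v1b1, is a bound, with 67.6 in HFD and 43.5 in Chow. Being above the floor in HFD only, it could only count as higher. Car12 stood at 0.31, Spink8 at 0.23 and Car2 at 0.16, and the intercalated cell factor gene Foxi1 was under the floor on both arrays.

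Markers of other cell types differed between the same arrays. Of 27 proximal tubule markers, 27 were above the floor, 24 were higher in HFD (7068 of all 11356 genes), 10 of them at least 1.5-fold (4.21% of all genes). Their median was 0.53, and they had a summed signal of 30346 in HFD and 22887 in Chow. Of 20 macrophage markers, 19 were above the floor and 16 at least 1.5-fold higher (4.21% of all genes), with a median of 1.15. Of these, 4 (Cd68, C1qa, C1qb and C1qc) were above it in HFD only, all 4 are among the 16, and the median is the bound of C1qb. Over the 15 above the floor on both arrays, 12 were at least 1.5-fold higher and the median was 1.22. The list had a summed signal of 10267 in HFD and 5948 in Chow. The 22 podocyte markers had a median of -0.063 and a summed signal of 136251 in HFD and 148573 in Chow. The medians of glomerular endothelial and mesangial markers were 0.18 (22 genes) and 0.029 (11 of 12 genes), and 1 of 9 urothelial markers was above the floor, at 0.27. The 10 members summed to 9006 in HFD and 6246 in Chow over 1 probe set per gene, of which Umod gave 5000 and 3742. HFD sums were also higher in the glomerular endothelial list (117614 in HFD and 112665 in Chow) and the mesangial one (36219 in HFD and 35115 in Chow). As in the podocyte and urothelial lists, they were lower for the further distal convoluted and connecting tubule genes (19321 in HFD and 20209 in Chow). The same held for the further principal cell genes (23603 in HFD and 23777 in Chow) and for all genes together. Of the distal sum, Wnk1 gave 9215 in HFD and 9945 in Chow. Of the principal cell sum, Sgk1 gave 14027 in HFD and 13216 in Chow. Single bright genes thus carry much of both sums, which do not measure tubule signal alone. All sums are of deposited signals, without centring. The part of other cell types in the members' differences was not tested.

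Set against the podocyte median, 8 of the 9 member genes above the floor were higher in HFD. They ran from 1.27-fold for Scnn1b at its bound to 2.66-fold for Tfcp2l1. This scale takes the same value (-0.063) from every gene, so the order of genes is unchanged and all genes move up with the members. The share of all genes higher on this scale was not computed. Slc12a3 and Calb1 both came to 1.85-fold, Slc12a1 to 1.71-fold, Kcnj1 to 1.62-fold, Aqp2 to 1.60-fold and Umod to 1.48-fold. Scnn1a stood at -0.054 log2 units on this scale. The median over the 9 genes was 0.70, and over 9 alternative settings it ran from 0.69 to 0.83. These settings do not all cover the same genes. The 0.83 came with the 70th percentile floor, where Aqp2, Scnn1a and Scnn1b dropped out.

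**Figure D4:**
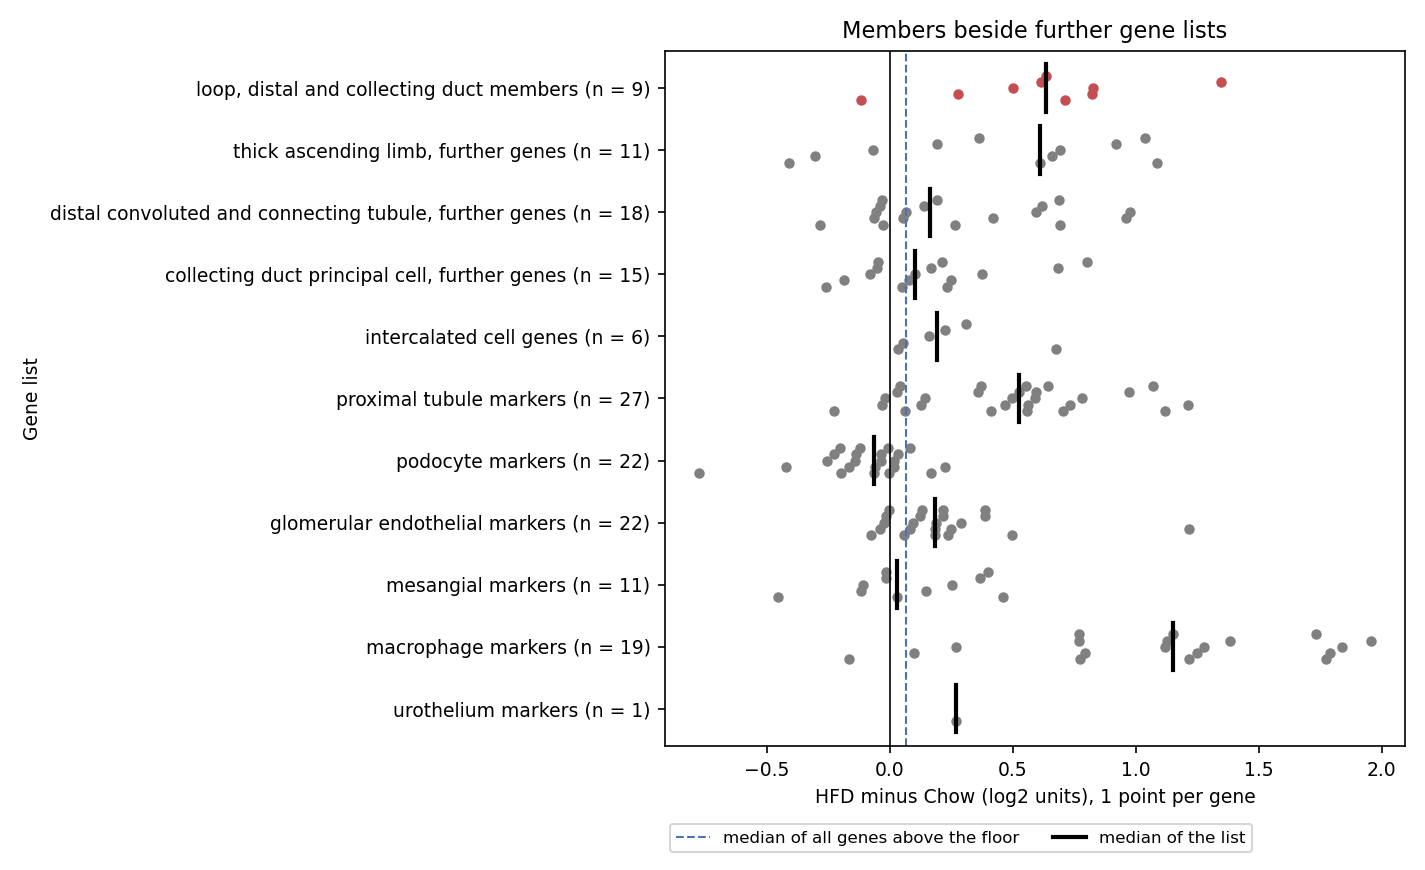
HFD minus Chow in log2 units for each gene above the floor, for the 10 members (9 above the floor) and 10 further lists, with the list median as a black bar and the median of all genes (0.064) as a dashed line. The members (0.64), the further thick ascending limb genes (0.61) and the proximal tubule markers (0.53) have medians above 0.5, the macrophage markers (1.15) lie farthest right, and the podocyte markers (-0.063) lie left of 0.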

How the data were processed

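The authors deposited 1 linear intensity per probe set and array. Labelling was two-cycle, per the labels' protocols, and the design text names GeneSpring 7.3.1. Probe summary and array scaling are steps not given in the sources used here. All 64 control probe sets were left out. Intensities were taken to log2, centred on each array's median and raised to a floor at the 50th percentile. Gene-level values used the probe set of highest mean signal. Symbols follow the 2016 platform annotation (34945 probe sets with 1 symbol, 932 with several, 9160 unnamed here), and no member shared a probe set with another symbol. Positions and promoters came from RefSeq, assembly GRCm38.p6. Genes named from the further nephron lists were the 3 with the largest difference above the floor on both arrays and the 1 of highest mean signal. Others (Ptger3, Cd68, C1qa, C1qb, C1qc, Nos1, Cldn16, Cldn19, Trpm6, Pvalb, Nr3c2, Nedd4l, Aqp3, Aqp4, Avpr2, Atp6v1b1, Slc26a4, Kit, Foxi1) were named with their values known. The other cell type lists are given by counts, medians and summed signals. Some listed genes were not matched to a symbol and are not analysed here. The members and lists were chosen with earlier results of these data known. The motif TATAAA was added after seeing the data. The procedure was run on simulated data with less noise than the scatter of the dim bins here. Recovery was required only for folds larger than that of any member, so the run is no check of the 1.5-fold and 2-fold counts. Python 3.11.15, numpy 2.4.6, pandas 2.3.3 and statsmodels 0.14.6 were used.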

Additional observations from a re-analysis of the deposited data

How the results depend on the processing

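Tried in turn were the deposited scale without centring, quantile normalization, loess (span 0.3), a 30th or 70th percentile floor, no floor, no floor with each array's 25th percentile added, a gene value from the median of its probe sets, and the removal of probe sets ending in _s_at, _x_at or _a_at. The median over member probe sets ran from 0.49 to 0.71 and that over member genes from 0.55 to 0.76. The count of member probe sets at least 1.5-fold higher ran from 4 (no centring, without Kcnj1 and Aqp2) to 11 (no floor), and that of member genes from 4 to 7. With no floor, where values near 0 enter, 1 member probe set was at least 1.5-fold lower and 2 were at least 2-fold higher. With the 70th percentile floor 0 member probe sets and 0 member genes were at least 2-fold higher, since Tfcp2l1 became a bound. Aqp2, Scnn1a and Scnn1b were then under the floor on both arrays and gave no value, so they are not counted for that setting. With the 25th percentile added, which brings in the dim probe sets, the distal convoluted tubule median was 0.34, the principal cell median 0.41 and the sodium channel median 0.35. The sodium channel median was 0.42 with the 30th percentile floor and with no floor, and -0.0027 without centring. With those shared probe sets removed, the macrophage median was 0.78. The median percentile of member probe sets on the HFD array was 52.7 among all probe sets and 46.2 among those with 1 symbol. In all, 384 of 399 alternative values stayed within 0.24 log2 units of the value reported (the scatter of all probe sets) or within 1.5 times the count reported, and 0 of the values past 1.5-fold changed sign. Every value rests on 1 array per diet, and the members near the floor (the sodium channel genes and Aqp2) are the least precise. No paired analysis was possible because each diet has 1 array.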
